A study of Caenorhabditis elegans with 2 samples.

Results

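The regions described here are the 3709 peaks that ranked directly below the strongest, thresholded peaks of a ChIP-seq experiment on the C. elegans transcription factor CES-1. They were taken from a pooled list of 30000 peaks, ranked by the signal the authors deposited with each peak. A second, thresholded list held those kept by a test of the irreproducible discovery rate (IDR), a measure of how well the ranks of peaks recur between replicate libraries. Its 6290 peaks were exactly the 6290 strongest rows of the pooled list. The regions were chosen by this signal: they are the rows from rank 6291 to rank 10000 on the 6 nuclear chromosomes. Those ranks hold 3710 rows, and 1 of them, on the mitochondrial genome at rank 7406, was dropped. The regions are called weak peaks below.

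Chromatin came from mixed-stage embryos of strain OP174, males and females pooled, whole animals. The strain carries the mutation unc-119(ed3) and the transgene wgIs174, in which ces-1 is fused to TY1, EGFP and FLAG and a working unc-119 is included. The sources used here do not state which cells expressed the fusion or how many copies the insertion holds. There were 2 biological replicates, both of this single group, with 30000 peaks listed for each. The labels list a possible control, which was not analysed here, and they name the antibody only by its target. Nothing in the labels says that the replicates came from separate cultures.

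CES-1 belongs to the Snail family of zinc finger proteins, which bind E-box sequences and are best known as repressors of transcription. In C. elegans its activity can block the programmed death of sister cells of pharyngeal neurons by acting on the cell death gene egl-1, which the bHLH proteins HLH-2 and HLH-3 switch on. Its own gene is repressed by the bZIP factor CES-2. A peak list from such an experiment is a ranking: strong rows recur between libraries, weak rows increasingly do not, and a cut is placed where the rank agreement fades.

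The windows shown here reach 50 bases to either side of weak summits, on the plus strand of ce11, as held by the RefSeq WBcel235 assembly. They were picked to show what weak summits look like: at a gene that the transgene also carries (unc-119), at weak summits matched to summits of high rank in both replicates (syd-2, egl-18, T07E3.3), and at promoters with the E-box that Snail proteins bind (nrfl-1, Y59C2A.2, lgl-1). The last of these sets was chosen after values were seen. Capitals mark the 4 motifs searched, which were the E-boxes CAGGTG and CACGTG, the repeat GAGAGAGA and the tRNA gene element GTTCGANNC, each on both strands. A window without capitals held none of them. The positions are chrIII:10902285-10902385 for unc-119, chrX:10555665-10555765 for syd-2, chrIV:1904153-1904253 for egl-18, chrIII:6903481-6903581 for T07E3.3, chrIV:9123903-9124003 for nrfl-1, chrII:2204225-2204325 for Y59C2A.2 and chrX:871109-871209 for lgl-1.
unc-119: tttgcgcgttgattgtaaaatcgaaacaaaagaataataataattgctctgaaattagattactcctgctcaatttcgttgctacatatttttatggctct
syd-2: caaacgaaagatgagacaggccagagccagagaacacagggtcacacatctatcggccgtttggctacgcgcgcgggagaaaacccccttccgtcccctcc
egl-18: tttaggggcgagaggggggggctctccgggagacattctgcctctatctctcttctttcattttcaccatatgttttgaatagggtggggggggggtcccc
T07E3.3: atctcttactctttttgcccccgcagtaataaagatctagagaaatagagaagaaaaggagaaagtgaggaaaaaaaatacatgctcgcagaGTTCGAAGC
nrfl-1: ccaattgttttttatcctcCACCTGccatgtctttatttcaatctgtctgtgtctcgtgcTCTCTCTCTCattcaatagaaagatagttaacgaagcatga
Y59C2A.2: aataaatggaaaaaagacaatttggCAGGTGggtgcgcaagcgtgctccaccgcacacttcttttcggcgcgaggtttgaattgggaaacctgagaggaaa
lgl-1: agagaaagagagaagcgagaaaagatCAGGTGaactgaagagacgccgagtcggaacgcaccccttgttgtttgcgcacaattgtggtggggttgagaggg

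The values that chose the weak peaks are given as description only. Their signal, the authors' own value on a scale that is not stated, ran from 58.7 at the first rank to 34.8 at the last, with a median of 43.3. The last thresholded row, at rank 6290 and nearest the 5′ end of the Frizzled receptor gene cfz-2, had a signal of 58.698. The first weak peak, in an intron with heri-1 as the nearest 5′ end, had 58.683. At the other end the last weak peak, nearest C46F11.6, had 34.813 and the first row below, nearest F54D5.17, had 34.8115. The signal therefore fell without a visible step at either edge.

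The authors' −log10 q of the weak peaks ran from 2.45 to 0.868 with a median of 1.38. It was at least 2 in 723 of them (19.5%). The lowest value in the thresholded list was 2.05, and 581 weak peaks (15.7%) exceeded it. That lowest value did not belong to the rows nearest the cut, as the last thresholded row, at rank 6290, had 2.45. It lay among stronger rows: ranks 501 to 1000 had a median of 2.13 at a median signal of 295. The 3709 rows ranked just above, all of them thresholded, had a median of 2.66 and a minimum of 2.45, and no row of the 3709 ranked just below exceeded 0.868. These equal-sized sets above and below serve as the comparison from here on. Width carried little information, since 3704 weak peaks were 390 bp wide.

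A summit within 100 bp was found in both replicate lists for 2727 weak peaks, or 73.5% (exact 95% binomial interval 72.1 to 74.9). Another 436 were found only in replicate 1, 505 only in replicate 2 and 41 in neither. The share was 91.6% in the rows above and 49.7% in the rows below. It fell steadily with rank inside the weak peaks too, through 84.0%, 77.5%, 72.9%, 68.3% and 64.9% over 5 equal steps of rank. Because the pooled signal is made from both replicates, these shares carry no test, and they depend on the distance allowed: 49.7% matched at 50 bp, 89.0% at 200 bp, and 94.7% overlapped by interval.

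Where both lists held the peak, the median signal was 21.8 in replicate 1 and 22.0 in replicate 2, and the median ranks there were 9050 and 9036. The log2 of the signal in replicate 2 over that in replicate 1 had a median of −0.003 and an SD of 0.83 across weak peaks, compared with an SD of 0.68 above and 0.74 below. Only 9 weak peaks lay within the top 6290 ranks of both replicates, whereas 481 did so in replicate 1 alone, 370 in replicate 2 alone and 2849 (76.8%) in neither. Of those at the top of a replicate, 132 from replicate 1 and 124 from replicate 2 had no match in the other list.

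**Figure D1:**
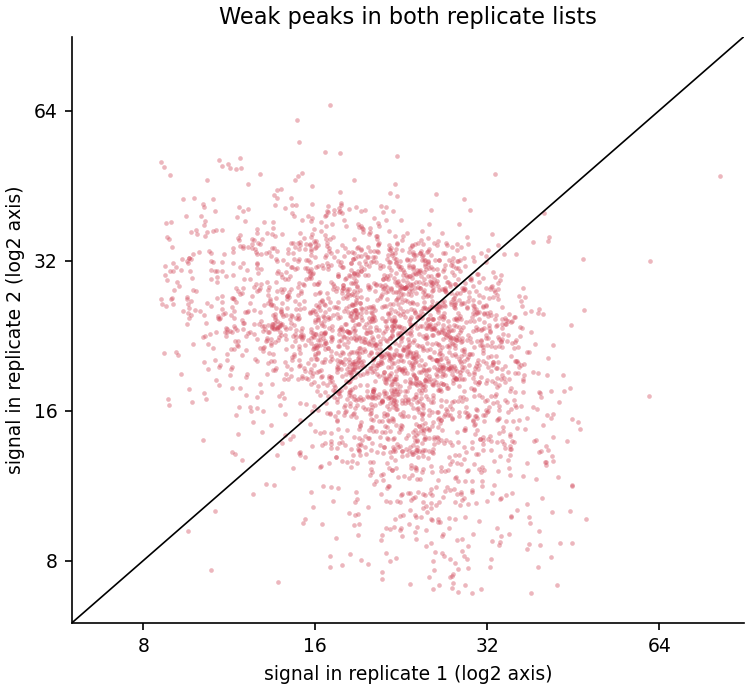
Each point is a weak peak found in both replicate lists, with its signal in replicate 1 on the horizontal and in replicate 2 on the vertical axis, both log2 axes in the authors' unstated signal unit, and the line marks equality. The cloud is centred on the line, with medians of 21.8 and 22.0, and no relation is read from its shape because the pooled signal chose the points.

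The weak peak with the highest lower replicate signal lay upstream of syd-2, which encodes the synaptic scaffold liprin-alpha. Its pooled signal was 48.0, but its matched summits had 81.7 in replicate 1 and 47.3 in replicate 2. It stood 476 bp upstream of the nearest 5′ end and 200 bp from a thresholded summit. Next came a summit nearest C05E11.3 with a pooled signal of 57.7 and replicate values of 40.3 and 39.9. The third, nearest arrd-25, had 57.7 pooled, 41.1 in replicate 1 and 35.7 in replicate 2. An intronic summit of egl-18, which encodes a GATA factor of the epidermis, had 53.4 pooled, 41.0 in replicate 1 and 35.0 in replicate 2. The summit 346 bp upstream of T07E3.3 had 49.97 pooled, 38.6 in replicate 1 and 34.9 in replicate 2. The rest of the first 10 were nearest F12D9.2, mfb-1, tsp-20, F38G1.3 and gly-20. Of the 10, 6 lay within 300 bp of a thresholded summit and 8 lay outside every promoter window. The summits of egl-18 and T07E3.3 were among these 6, at 200 and 208 bp. A replicate summit between a weak summit and its stronger neighbour could be matched to the weak one. Whether the replicate values at such pairs belong to the neighbour was not tested.

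Weak peaks sat at promoters less often than the rows above and more often than the rows below. A promoter window spanned the 1000 bp before and the 200 bp after a protein-coding 5′ end, and such windows cover 26.1% of nuclear bases. A window held the summit of 1234 weak peaks, 33.3% (31.8 to 34.8), against 43.4% above and 27.7% below. The difference was −10.1 percentage points from the rows above (95% interval −12.3 to −7.93, adjusted p = 4.0e-18) and 5.58 points from the rows below (3.49 to 7.67, adjusted p = 4.4e-07) by Fisher's exact test. Both tests were two-sided and adjusted by the Benjamini-Hochberg method over 13 tests of this kind. Neighbouring peaks are not independent, so these p-values are too small. The same ranks taken from each replicate's own list gave −10.9 and 4.74 points in replicate 1, and −9.97 and 4.42 points in replicate 2.

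The change ran through the cut rather than starting at it. Within the weak peaks the promoter share was 36.0%, 38.7%, 31.1%, 32.2% and 28.3% over 5 equal steps of rank. When the weak peaks ended at rank 8000, leaving 1709 in each set, the difference from the rows above was only −3.16 points (Fisher's exact test, adjusted p = 0.16). Beyond rank 10000, bins of 500 ranks held between 18.6% and 30.8%, against 26.1% of the genome. The highest was the first of these bins. From rank 26501 on every bin was under the genome share, at 18.6% to 24.4%.

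**Figure D2:**
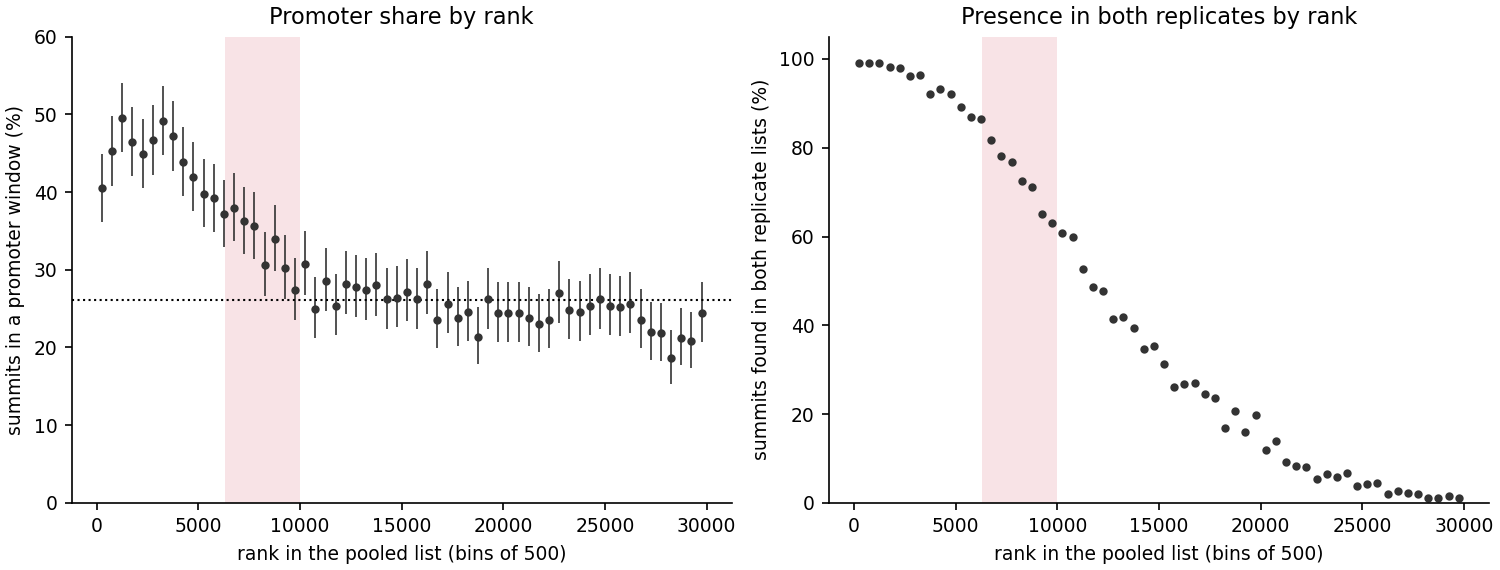
The left plot gives the share of summits in a promoter window (percent) and the right plot the share found in both replicate lists (percent), each in bins of 500 ranks of the pooled list, with exact 95% binomial intervals on the left. The shaded band holds the weak peaks and the dotted line is the 26.1% of nuclear bases in promoter windows; both shares fall through the band without a step at its edges.

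Weak summits near 5′ ends were most frequent just upstream of them, as in the rows above. Over all weak peaks the median distance from the nearest protein-coding 5′ end was 1305 bp, against 1040 bp above and 1425 bp below. Within 1000 bp, 1054 lay upstream and 502 downstream, compared with 1408 and 416 above and with 821 and 617 below. The fullest 100 bp bin was the one from 200 to 100 bp upstream, which held 194 weak summits. An asymmetry towards the upstream side was thus present in each set and was smallest below.

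**Figure D3:**
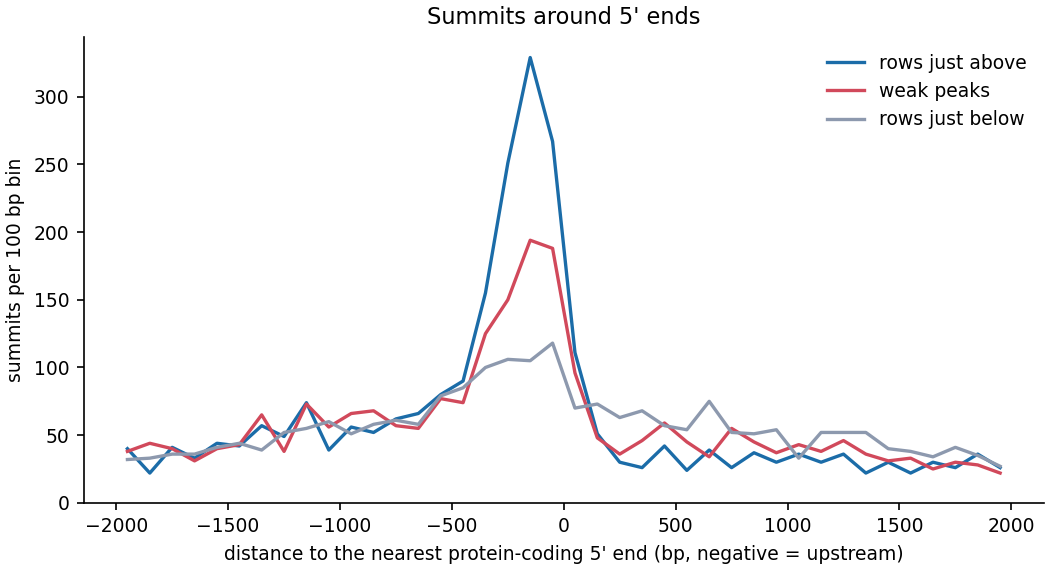
Summits per 100 bp bin are plotted against the distance to the nearest protein-coding 5′ end (bp, upstream negative) for the weak peaks and for equal numbers of rows ranked just above and just below. All 3 sets peak just upstream of the 5′ end, with the weak peaks, at 194 in their fullest bin, between the other sets.

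Gene features followed the same order, with the weak peaks between their neighbours. Intergenic sequence held 52.8% of weak summits, against 60.5% above (difference −7.76 points, Fisher's exact test, adjusted p = 5.6e-11), 44.0% below (8.74 points, adjusted p = 2.6e-13) and 37.3% of nuclear bases. Introns held 33.9%, against 30.0% above (3.91 points, Fisher's exact test, adjusted p = 0.00063), 43.3% below (−9.38 points, adjusted p = 7.9e-16) and 33.1% of bases. Coding exons held 4.53%, far under their 24.6% of bases. That was 1.11 points more than above (Fisher's exact test, adjusted p = 0.020) and 1.48 points less than below (adjusted p = 0.0072). With only rows found in both replicate lists, the first difference was 0.775 points and did not pass (Fisher's exact test, adjusted p = 0.14). With promoter summits set apart first, the second was −0.620 points and did not pass (Fisher's exact test, adjusted p = 0.19). The intergenic difference from the rows above turned with the order of classes: with promoter summits set apart first, weak peaks had 2.62 points more intergenic summits than the rows above (Fisher's exact test, adjusted p = 0.022). With the weak peaks ended at rank 8000, the intergenic difference from the rows below was 4.86 points and still passed (Fisher's exact test, adjusted p = 0.032), and none of the other intergenic, intron and coding exon differences did.

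Untranslated exons were fullest in the weak peaks, at 8.76% (7.87 to 9.72), with 6.01% (5.27 to 6.83) above, 6.63% (5.85 to 7.48) below and 4.90% of bases. The intervals of the weak peaks and their neighbours do not overlap, but the difference was noticed in the values and was not tested. The sides differed by neighbour. Exonic 3′ untranslated sequence held 207 weak summits, 5.58% (4.86 to 6.37), against 93 above and 182 below. The 5′ side held 113, against 131 above and 60 below. The excess over the rows above thus lay on the 3′ side, and the larger part of that over the rows below on the 5′ side.

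Weak peaks were spread over all 6 nuclear chromosomes, with 652 on I, 510 on II, 542 on III, 541 on IV, 497 on V and 967 on X. Per megabase that was lowest on V, at 23.8, and highest on X, at 54.6. X held 26.1% of weak summits and 17.7% of nuclear length. In the pooled list its share was 2.72 points above that of the rows above (Fisher's exact test, adjusted p = 0.0092) and 2.94 points above that of the rows below (adjusted p = 0.0058). This did not hold within replicates. In the list of replicate 1 the differences were 0.243 and 1.91 points, and in that of replicate 2 they were 1.64 and 0.350, with adjusted p between 0.070 and 0.90 by the same exact test. The promoter share of weak summits was lowest on X, at 27.3%, and lay between 33.6% and 38.6% on the autosomes. X was also lowest in the rows above, at 35.1%, and in the rows below, at 25.29%.

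Weak peaks were closer to thresholded peaks than the rows below. A thresholded summit lay within 1000 bp of 855 weak summits, 23.1%, against 17.98% of rows below and 10.9% of nuclear bases. The difference was 5.07 points (3.23 to 6.90, Fisher's exact test, adjusted p = 1.9e-07), and it was 4.93 points in replicate 1 and 4.02 in replicate 2. Part of the pooled difference came from peaks overlapping a thresholded interval. These were 310 weak peaks (8.36%), against 204 rows below (5.50%). Ended at rank 8000, weak peaks were instead 1.29 points less often near a thresholded summit than the rows that followed (Fisher's exact test, adjusted p = 0.51). The median distance was 2448 bp, compared with 3047 bp below, and 574 weak summits lay over 10000 bp away.

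The distances had a gap. Within 300 bp of a thresholded summit lay 310 weak summits, 287 of them at no more than 240 bp, and each of the 310 overlapped the stronger peak's interval. From 300 bp to just under 600 bp there were 76, and from there to just under 1000 bp there were 469. No summits in the pooled list stood closer than that nearest distance, just under 200 bp. The same shape ran through that list, where 3857 of 29976 gaps between neighbours were under 300 bp, 1850 were under 600 bp but not under 300 bp, and 6410 were from 600 bp to under 1000 bp. Whether the peak caller sets this spacing was not tested. The weak peaks within 1000 bp of a thresholded summit were in a promoter window in 31.5% and in both replicate lists in 69.5%, and those farther away in 33.8% and 74.7%. Most weak peaks stood alone: 3138 had no other weak peak within 1000 bp, and the remaining 571 formed 270 runs of at most 4.

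**Figure D4:**
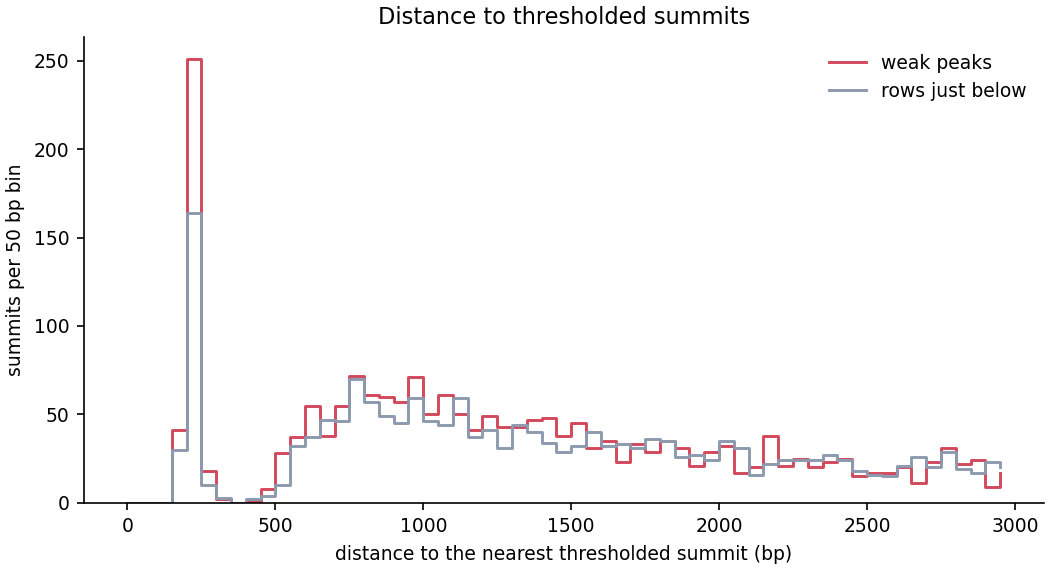
Weak peaks and the equal number of rows ranked just below are counted in 50 bp bins of the distance (bp) from their summit to the nearest thresholded summit, up to 3000 bp. Both sets have a narrow peak just past 200 bp, almost no summits from 350 to 450 bp and a broad shoulder beyond, with 251 weak peaks in the fullest bin.

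The E-box CAGGTG was no more frequent at weak summits than in the genome. CAGGTG or its reverse complement CACCTG stood within 50 bp of 90 weak summits, 2.43% (1.96 to 2.97), and in 2.45% of nuclear windows of the same length. The share was 2.05% above and 2.103% below. The differences were 0.377 points (−0.300 to 1.06, adjusted p = 0.33) and 0.324 points (−0.358 to 1.01, adjusted p = 0.39), neither of which passed Fisher's exact test. The interval still allows about 1 weak peak in 100 more than either neighbour. In the list of replicate 2 alone both differences were 0.836 points and passed (Fisher's exact test, adjusted p = 0.031), and in that of replicate 1 they were 0.0539 and −0.404 points and did not. With the window widened to 100 bp on either side, the difference from the rows above was 1.29 points and passed (Fisher's exact test, adjusted p = 0.0093).

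The other motifs were counted and not tested. GAGAGAGA or its reverse complement, a repeat common in worm promoters, lay at 124 weak summits, 3.34% (2.79 to 3.97), with 5.69% above, 1.43% below and 0.664% of nuclear windows. CACGTG, a palindromic E-box, lay at 0.890% of weak summits (0.613 to 1.25), with 1.64% above, 1.27% below and 1.67% of windows. GTTCGANNC, the internal promoter element of tRNA genes, lay at 29 weak summits, 0.782%, and in 0.749% of windows. Of the 29, 9 were within 100 bp of a tRNA gene. The window upstream of T07E3.3 printed earlier was not one of these, since its nearest tRNA gene was 14654 bp away. Base composition also differed between the sets. The windows had 35.8% G and C at weak summits, 40.2% above, 32.1% below and 35.4% genome-wide. GAGAGAGA shares had the same order of sets, while those of CAGGTG and CACGTG did not. The part of base composition in these shares was not tested.

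Among non-coding genes, tRNA and piRNA loci went opposite ways with rank. A tRNA gene lay within 100 bp of 34 weak summits, 58 above and 14 below. A piRNA gene, which makes one of the small RNAs that guard the germline genome, lay within 100 bp of 61 weak summits, 24 above and 116 below. As shares, the piRNA counts were 1.64% (1.26 to 2.11), 0.647% (0.415 to 0.961) and 3.13% (2.59 to 3.74). These differences were not tested. The annotation holds 15363 piRNA genes and 612 tRNA genes, and the share of the genome within 100 bp of either kind was not computed. Whether any of these shares lies above or below that of the genome is therefore not known, and the rise in piRNA counts is not read as occupancy.

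Weak peaks added a weak summit, without a thresholded one, to the promoter windows of 946 protein-coding genes, which are called gained here. That is 4.74% of the 19973 protein-coding genes. A thresholded summit was in the window of 3229 genes, or 16.2%, so counting both kinds gives 4175 genes or 20.9%. In all 1267 genes had a weak promoter summit, and 321 of them (25.34%) had a thresholded one as well. A single weak summit gained 876 of the 946 genes. The 926 weak summits involved included 96 that served more than 1 gene. A gained gene did not always have the 5′ end nearest to its weak summit. The strongest weak summit of a gained gene lay upstream in 846 genes and within 200 bp upstream in 301. Its median position over all 946 was 253.5 bp upstream. In 711 gained genes (75.2%) the strongest weak summit was found in both replicate lists. In 138 gained genes a thresholded summit lay in the gene body.

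Which genes are gained depended in part on the library. The same ranks of replicate 2 alone gained 1024 genes, and those of replicate 1 alone gained 931. Of the 1024, 531 (51.9%) were among the pooled 946, making up 56.1% of them. Of the 931, 431 (46.3%) were among the 946, making up 45.6%. The pooled 946 are 4.74% of all protein-coding genes. Genes outside the overlaps were not split into those with a stronger and those with a weaker summit in the other list. The pooled list contains the reads of both libraries, so these shares are not independent.

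In a list of 18 genes known from the genetics of ces-1 and cell death, 5 had a thresholded promoter summit, and weak peaks gained 2, ces-2 and hlh-2. That was 27.8% (9.69 to 53.5) thresholded and 11.1% (1.38 to 34.7) gained, against 16.2% and 4.74% of all protein-coding genes, and both intervals include those values. The weak summit of ces-2, which encodes the bZIP repressor of ces-1, lay 125 bp upstream of the gene at position 14961372 of chromosome I. Its signal was 55.2 pooled, 33.3 in replicate 1 and 15.3 in replicate 2, so replicate 1 was the higher. The summit of hlh-2, which encodes the E protein that activates egl-1, lay 184 bp upstream at position 7194104 of the same chromosome. Its signal was 48.2 pooled, 19.0 in replicate 1 and 32.7 in replicate 2, the opposite order. A second weak summit in an intron of hlh-2 had 38.8 pooled, 18.3 and 20.3.

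An intron of pig-1, a kinase gene of asymmetric division, held a weak summit with a signal of 35.5 pooled, 17.0 in replicate 1 and 20.5 in replicate 2, and its promoter already had a thresholded summit. An intron of cdc-25.2, a cell cycle phosphatase gene, held one with 42.8 pooled, 15.2 and 18.6. No weak summit lay in the promoter or body of ces-1, whose nearest was 17860 bp away, or of egl-1, at 1397 bp. None lay in those of hlh-3, dnj-11, the Snail family genes scrt-1 and snai-1, or the homeodomain gene unc-42, whose nearest was 2589 bp away. Thresholded summits were nevertheless present at unc-42, with 1 in the promoter and 5 in the body, and at dnj-11, with 1 in the promoter. The remaining genes named here as lacking a weak summit also lacked a thresholded summit in promoter and body.

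The gene unc-119, needed in neurons and used here as the rescue marker of the transgene, was gained with 3 weak summits in its promoter windows. The first was 306 bp upstream, with a signal of 57.9 pooled, 32.5 in replicate 1 and 24.9 in replicate 2. The second, in an intron and 207 bp from a thresholded summit, had 46.4 pooled, 19.0 and 9.001. The third, also intronic, had 43.2 pooled, 20.6 and 38.1. Each was in both lists, but the replicates ranked them in different orders. The body of unc-119 also held 2 thresholded summits. Since the transgene also carries unc-119, reads from the insertion and from the gene's own locus cannot be told apart here. The same limit applies to ces-1, which the transgene carries as the fusion.

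Signalling, adhesion and cell division lists had larger gained shares than the 4.74% of all protein-coding genes. Weak peaks gained 5 of 29 Wnt pathway genes, 17.2% (5.85 to 35.8), where 12 were already thresholded. Among them were mom-4, which encodes a kinase of the pathway, at a signal of 54.9, and pry-1, which encodes Axin, at 50.3. The Frizzled gene cfz-2 followed at 43.6, and pop-1, the TCF factor at the end of the pathway, at 35.8. The summit of pry-1 was in neither replicate list, and that of cfz-2 was in replicate 1 only. The summits of mom-4 and pop-1 were in both.

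Cell junction and adhesion genes were gained in 8 of 51, 15.7% (7.02 to 28.6). They included mig-13, a cell migration gene, at 54.4, the LAR-type receptor phosphatase ptp-3 at 52.2, the cadherin cdh-12 at 50.7 and the guidance gene madd-2 at 48.0. The summit of madd-2 was in replicate 1 only. Weak peaks gained 7 of 55 cell cycle genes, 12.7% (5.27 to 24.5), and 21 were thresholded. The spindle checkpoint gene bub-3 had 55.3 and the Aurora kinase gene air-1 53.1, both present in both replicates. The replicative helicase genes mcm-2 and mcm-7 had 44.97 and 44.9, and only mcm-7 was in both.

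Programmed cell death, the process ces-1 is known for, had 4 of 26 genes gained, 15.4% (4.36 to 34.9), and 3 thresholded. The gained genes act in the killing, exposure and clearance of the dying cell. They were the Rac GTPase ced-10 at 56.6, the AIF homologue wah-1 at 49.7, the gene ced-8 of phosphatidylserine exposure at 47.5 and the engulfment adaptor ced-6 at 40.2. All but ced-6 were found in both replicate lists. Rab, Arl, Arf and related small GTPase genes were gained in 5 of 41, 12.2% (4.08 to 26.2). Besides ced-10, which this list also holds, they included rab-30 at 57.2, in replicate 2 only, arl-13 at 53.4 and rap-1 at 50.8.

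Gained shares were also counted for transcription factor families, whose intervals overlapped one another. Of these, only the interval of the bHLH family lay wholly above the 4.74% of all protein-coding genes. The bHLH family had 6 of 40 gained, 15.0% (5.71 to 29.8). They included hlh-15 at 58.2, hlh-2 as above, hlh-16 at 46.4 and the muscle regulator hlh-1, the MyoD homologue, at 46.0. The summit of hlh-16 was in neither replicate list and that of hlh-1 only in replicate 1. The 5′ end of trt-1 was nearer to the hlh-16 summit, at 92 bp against 151 bp. Homeobox genes had 9 of 93, 9.68% (4.52 to 17.6), among them ceh-20, a Pbx homologue, at 57.2, ceh-1 at 57.0, the LIM homeobox gene lin-11 at 55.2 and ceh-92 at 53.6. The summits of ceh-20 and ceh-92 were in replicate 1 only. Embryonic fate genes had 5 of 45, 11.1% (3.71 to 24.1), including egl-18 at 42.9, egl-46 at 39.4, tbx-2 at 39.3, in replicate 2 only, and egl-44 at 37.9. Nuclear hormone receptors, at 14 of 274 or 5.11% (2.82 to 8.42), were close to the background. Their strongest were nhr-88 at 57.0, nhr-86 at 56.5, nhr-13 at 53.1 and nhr-42 at 52.2.

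Lists of ribosomal, proteasome and pan-neuronal genes had high thresholded shares. Of 83 cytosolic ribosomal protein genes 65 had a thresholded summit and 2 were gained, rpl-11.1 at 56.6, in replicate 1 only, and rla-2 at 44.7. The 2 gained genes are 2.41% (0.293 to 8.43) of the list, an interval that includes 4.74%. They are 11.1% of the 18 without a thresholded summit, where the share over all such protein-coding genes was 5.65%. Of 33 proteasome subunit genes 21 were thresholded and 0 gained. Of 24 pan-neuronal genes 21 were thresholded and unc-119 alone was gained. Mitochondrial ribosomal protein genes had 30 of 70 thresholded and 4 gained, 5.71% of the list, or 4 of the 40 without. These were mrps-35 at 58.2, mrpl-39 at 56.5, mrpl-2 at 54.1 and mrps-23 at 50.3, all present in both replicates. The 5′ end of sws-1 was nearer to the mrps-35 summit, at 27 bp against 129 bp.

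Neuronal ion channel genes were near the background, with 9 of 204 gained, 4.41% (2.04 to 8.21). They included the acetylcholine receptor subunit unc-29 at 56.6, the sodium leak channel nca-2 at 54.3, the potassium channel irk-3 at 54.3 and the glutamate-gated chloride channel avr-14 at 53.2. Neuropeptide genes had 4 of 102, 3.92%, with nlp-41 at 57.9, nlp-50 at 40.7, flp-9 at 37.3, in replicate 2 only, and nlp-59 at 35.1.

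The lowest gained shares among large families were those of chemoreceptors, lectin and F-box genes and collagens. Chemoreceptors had 17 of 1345, 1.26% (0.738 to 2.02), including srsx-16, srz-3, srt-63 and sre-39. The summit of srsx-16 was in replicate 1 only and that of sre-39 in neither replicate list. C-type lectin and F-box genes had 6 of 562, 1.07% (0.393 to 2.31), and cuticle collagens 2 of 175, 1.14% (0.139 to 4.07), col-68 and col-35. Smaller lists had intervals that included 4.74%. Muscle structure genes had 1 of 47, the troponin I gene tni-4. Histone genes had 1 of 73, his-42, and germline genes 1 of 44, mes-3. Intestine genes had 0 of 43, which allows up to 8.22%. The lists were small, most intervals included 4.74%, and no list was tested. The median signal of the strongest weak summit over all gained genes was 45.5. In the lists with at least 4 gained genes the medians ran from 39.0 for neuropeptides to 55.3 for mitochondrial ribosomal proteins.

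**Figure D5:**
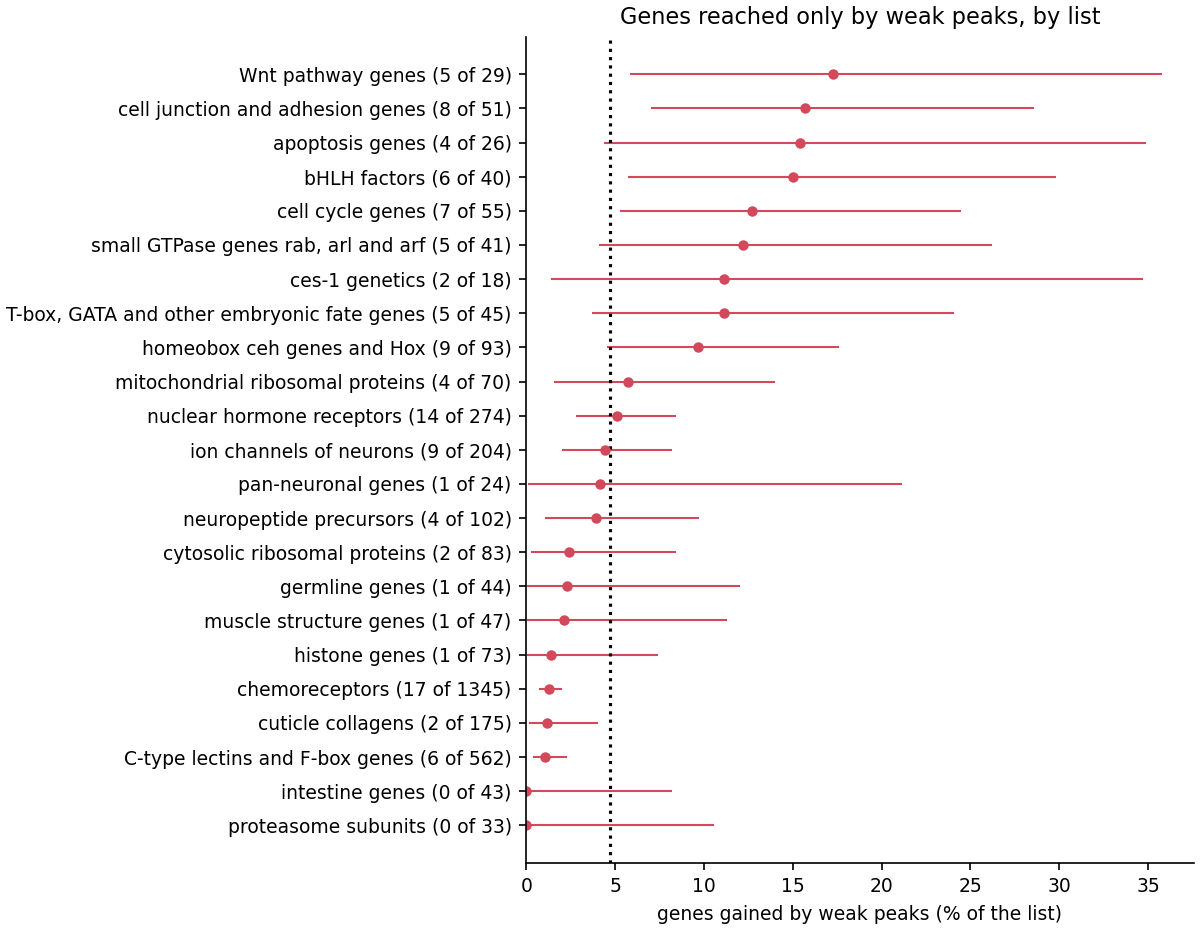
For each gene list the point is the percent of its genes gained by weak peaks, with the exact 95% binomial interval, and the counts stand beside the name. The dotted line is the 4.74% of all protein-coding genes; Wnt pathway genes lie at 17.2% and chemoreceptors at 1.26%.

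Some genes collected many weak summits, mainly in introns. A weak summit lay in the body of 1277 protein-coding genes, and 17 of these had 5 or more. The cadherin gene hmr-1, which spans 58913 bp, had 9, of which 7 were intronic and 5 were in both replicate lists, with signals from 51.4 to 35.2. Its body also held 11 thresholded summits. There were 8 each in kin-1 (protein kinase A), mbl-1 (a Muscleblind RNA-binding protein), ptp-3, unc-9 (a gap junction innexin) and zfh-2 (a zinc finger homeodomain factor). Density was highest among these in unc-9, at 5.35 per 10 kb over 14960 bp, and lowest in hmr-1, at 1.53. The nuclear genome had 0.370 per 10 kb, but these genes were picked for their counts, so a higher density was fixed by that choice. In unc-9, 4 of the 8 were in both lists, and in mbl-1 and ptp-3, 7 of 8.

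At promoters, unc-43, which encodes the calcium/calmodulin kinase CaMKII, was gained with most weak summits. It had 5, with signals from 49.9 to 40.3, of which 4 were in both replicate lists. Besides unc-119, the next were mai-1, a mitochondrial ATPase inhibitor gene, ptp-3 and gcy-28, a receptor guanylyl cyclase gene, with 3 each. Those of ptp-3 and gcy-28 were all in both lists, as were 2 of the 3 at mai-1. Intronic were all 3 at ptp-3, 2 at gcy-28 and 1 at mai-1. The bodies of unc-43, ptp-3 and gcy-28 also held 4, 4 and 5 thresholded summits, and that of mai-1 held 0. In total 8 gained genes had 3 or more.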

How the data were processed

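Peak lists from 2 libraries of 1 group were used as deposited. Per the deposited notes, relaxed lists were made for each replicate and for the pooled replicates against a control, and an IDR step gave the thresholded list. No aligner, peak caller or version is named in the sources used here. Signal values are the authors', on a scale not stated, and the deposited −log10 q was described only. The files hold no read counts, so depth is unknown and no precision can be drawn from it.

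Positions are 1-based on ce11, placed with the WBcel235 annotation of Ensembl release 115. Only 5′ ends of protein-coding transcripts were used. Features followed the order coding exon, untranslated exon, intron, intergenic. Summits within 100 bp were matched.

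Shares were compared by two-sided Fisher's exact tests, Benjamini-Hochberg adjusted over 13 tests at a threshold of 0.05, with Newcombe intervals of differences. Shares carry exact 95% binomial intervals, which reflect counting error only. The functions were tested on simulated data. Python 3.11.15, NumPy 2.4.6, pandas 2.3.3 and SciPy 1.17.1 were used.

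The weak peaks, the 23 gene lists (3 entries unmatched), the tests and the rule for names were chosen with earlier results of these data known. Named were the rows at either edge, the 10 weak peaks with the highest lower replicate signal, up to 4 gained genes per list by signal, a set of genes of ces-1 genetics with unc-119, hmr-1 and unc-42, and the 5 genes with most weak summits in body or promoter, with zfh-2 named as tied. Alternatives varied the list, rank limits, ranking value, promoter and motif windows, match distance and build.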

Additional observations from a re-analysis of the deposited data

How the results depend on the processing

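Of 102 alternative values with a test, 81 kept their direction and side of the threshold, and 8 of 8 counts stayed within 1.5 times the main count. The promoter differences changed in 1 setting alone, the end at rank 8000, where the comparison from above was −3.16 points. Other values at that end were −2.40 (intergenic, from above), 1.23 and −2.40 (intron, from above and below), −0.936 and −1.70 (coding exon), 3.51 and 2.52 (X) and −1.29 for nearness, none of which passed. By construction that setting compares fewer rows that lie closer in rank. Leaving out a replicate moved the X differences to between 0.243 and 1.64 points from above and between 0.350 and 1.91 from below. It moved the CAGGTG differences to between 0.0539 and 0.836 points from above and between −0.404 and 0.836 from below. With only rows found in both replicates, coding exons differed by 0.775 points from above, no longer a call, and CAGGTG by −0.274 from below. With promoters taken out first, intergenic differed by 2.62 points from above and coding exons by −0.620 from below, no longer a call. CAGGTG within 100 bp differed by 1.29 points from above. Presence in both replicates was 49.7%, 89.0% and 94.7% under other matching. Apart from what is stated, the causes were not tested. Leaving out rows within 1000 bp of a thresholded summit, an alternative chosen after seeing the data, changed no call against the rows below. On ce10 the rule found 3711 members, and 3701 of the ce11 members were among them. Gained genes numbered 688 to 1191 over promoter windows. No paired analysis was possible because both replicates belong to a single group.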
